A study of Homo sapiens with 21 samples.

Results

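The adrenergic core regulatory circuit factors described here are 8 transcription factors, PHOX2A, HAND1, HAND2, GATA2, GATA3, ISL1, TBX2 and INSM1, chosen by gene symbol from the 60728 genes with a deposited value. Each symbol had 1 row, and all 8 genes were among the 18584 genes tested. INSM1 was near the floor in most libraries and passed the filter on low values only through the libraries where it was highest. RNA-Seq was made from polyadenylated RNA of SK-N-BE(2), an established human neuroblastoma cell line, 72 h after transduction with lentiviral particles that carried short hairpin RNAs (shRNAs, which lower the level of a target transcript). The 21 libraries fall into 7 conditions of 3 biological replicates each, a non-silencing Control and 6 silenced conditions. These are labelled shARID1A.2 and shARID1A.4, shARID1B.2 and shARID1B.3, and shARID1A/B.2.3 and shARID1A/B.4.2. All conditions share the cell line, the lentiviral transduction and the time point, and all cells are of a single line.

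ARID1A and ARID1B are mutually exclusive subunits of the BAF chromatin remodelling complex, which opens chromatin and so lets transcription factors reach DNA. In adrenergic neuroblastoma cells a small set of lineage transcription factors bind at enhancers of their own genes and of each other, and this closed loop is called the core regulatory circuit. In the developing sympathetic nervous system the same factors act in the specification of noradrenergic neurons, which make and release noradrenaline. A bulk library adds up many cells, so fewer cells of a type and less RNA per cell cannot be told apart.

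The targeted genes were examined first, and they went against several labels. The normalized value of ARID1A (reads divided by the size factor of the library) was 6097, 6374 and 6463 in Control. It was 2169, 2160 and 2109 in the libraries labelled shARID1A.2 and 2289, 2157 and 2284 in those labelled shARID1A.4. In the libraries labelled shARID1B.2 the ARID1A value was 1962, 1882 and 1916, and in those labelled shARID1B.3 it was 2507, 2480 and 2450. ARID1A was therefore low in all 12 of these libraries, at 30.4% to 39.3% of Control. In the libraries labelled shARID1A/B.2.3 it was 5510, 5752 and 5714, and in those labelled shARID1A/B.4.2 it was 5589, 5352 and 5379, which is 89.7% and 86.2% of Control.

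ARID1B had values of 5793, 5804 and 5791 in Control. It was 2252, 2248 and 2224 in the libraries labelled shARID1A.2 (38.7% of Control) and 3065, 3110 and 3126 in those labelled shARID1A.4 (53.5%). In the libraries labelled shARID1A/B.2.3 the ARID1B value was 2540, 2651 and 2607 (44.9%), and in those labelled shARID1A/B.4.2 it was 1886, 1881 and 1955 (32.9%). These 4 conditions lay far below Control, without overlap. The libraries labelled shARID1B.2 had ARID1B values of 5056, 4913 and 5043 (86.3% of Control) and those labelled shARID1B.3 had 6182, 6038 and 6053 (105.1%). So both genes were low in the libraries labelled shARID1A.2 and shARID1A.4, ARID1A alone was low in those labelled shARID1B.2 and shARID1B.3, and ARID1B alone was low in those labelled shARID1A/B.2.3 and shARID1A/B.4.2. The labels are used below as written, and every direction given for a labelled condition is to be read with this in mind.

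Between 27954334 and 41077638 reads were recovered per library (median 34973565). The cell type was checked against its markers: TH, DBH, DDC, CHGA, CHGB, SLC18A1 and SLC18A2, which noradrenergic cells use to make, store and release catecholamines, were all detected in Control. SLC18A2 was close to the floor there, at normalized values of 14.09, 14.55 and 15.41 on 12 to 15 reads. A gene was called where limma's test on log2(value + 1) gave a Benjamini-Hochberg adjusted p under 0.05 over all genes tested. The replicates of a condition lay close together, and most of the 18584 genes tested were called in every comparison, also between the shRNAs of 1 label. A call on a single factor is therefore common in these data, and the size of each difference is given beside it.

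In Control, HAND2 and PHOX2A were the most abundant of the 8 factors per length of transcript. In RPKM (reads scaled to exon length and library size, computed here from the recovered reads), HAND2 was at 149 ± 2.47 and PHOX2A at 140 ± 3.4 (SD, n = 3). HAND1 followed at 76.5 ± 1.52 RPKM, GATA2 at 66.3 ± 1.62, GATA3 at 59.9 ± 0.712 and ISL1 at 57.6 ± 0.342. TBX2 was lower, at 18.5 ± 0.42 RPKM, which is above both targeted genes (ARID1A 11.1 and ARID1B 3.62). INSM1 was at 0.0385 ± 0.0299 RPKM, so 7 of the 8 factors were well expressed and INSM1 was not.

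The promoters of HAND2, HAND1 and ISL1 are shown because HAND2 and ISL1 were lower than Control in all 6 conditions, while HAND1 was higher in 5 of them. The sequences are from RefSeq (GRCh38.p14), on the strand of the gene, and end next to the annotated exon. They cover chr4:173530230-173530479 (minus strand, HAND2), chr5:154478265-154478477 (minus strand, HAND1) and chr5:51383198-51383390 (plus strand, ISL1). Capitals mark matches to GATAA, the core that GATA factors bind, or to TAATTA, a homeodomain core, on either strand.
HAND2: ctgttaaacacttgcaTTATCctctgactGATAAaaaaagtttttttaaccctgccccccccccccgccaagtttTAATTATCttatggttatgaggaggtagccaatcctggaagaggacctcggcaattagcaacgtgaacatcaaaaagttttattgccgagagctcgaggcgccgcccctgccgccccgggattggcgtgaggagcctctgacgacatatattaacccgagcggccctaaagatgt
HAND1: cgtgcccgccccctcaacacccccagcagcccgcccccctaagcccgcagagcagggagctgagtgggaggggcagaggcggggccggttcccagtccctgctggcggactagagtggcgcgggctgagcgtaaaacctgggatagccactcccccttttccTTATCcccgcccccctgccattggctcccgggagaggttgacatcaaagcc
ISL1: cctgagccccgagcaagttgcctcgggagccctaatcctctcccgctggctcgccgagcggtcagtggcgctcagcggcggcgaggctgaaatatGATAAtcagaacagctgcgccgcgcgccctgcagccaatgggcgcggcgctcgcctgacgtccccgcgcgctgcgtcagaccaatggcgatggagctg

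The HAND2 stretch holds 3 matches to GATAA and 1 to TAATTA, and the last GATAA match overlaps the TAATTA match in its letters. The HAND1 and ISL1 stretches, cut to 213 and 193 bases at the exon, hold 1 match to GATAA each. Over the full 250 bases before its start, ISL1 has 2 matches to GATAA. Of 34943 RefSeq promoter windows of 250 bases, 20.5% hold GATAA and 4.35% hold TAATTA on either strand. None of the 3 stretches holds CATCTG (a HAND site, in 12.2% of windows), CTAATG (an ISL1 site, in 5.58%) or GGTGTG (a T-box core, in 14.2%) on either strand. RefSeq gives HAND2-AS1, a noncoding gene on the opposite strand, 2 start sites in the table. The one at 173530458 lies in the HAND2 stretch, 229 bases from the start of HAND2 at 173530229, and the other, at 173528600, lies within HAND2. These matches are descriptions of letters, and 6 of the 8 factors had a promoter window in the table.

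**Figure D1:**
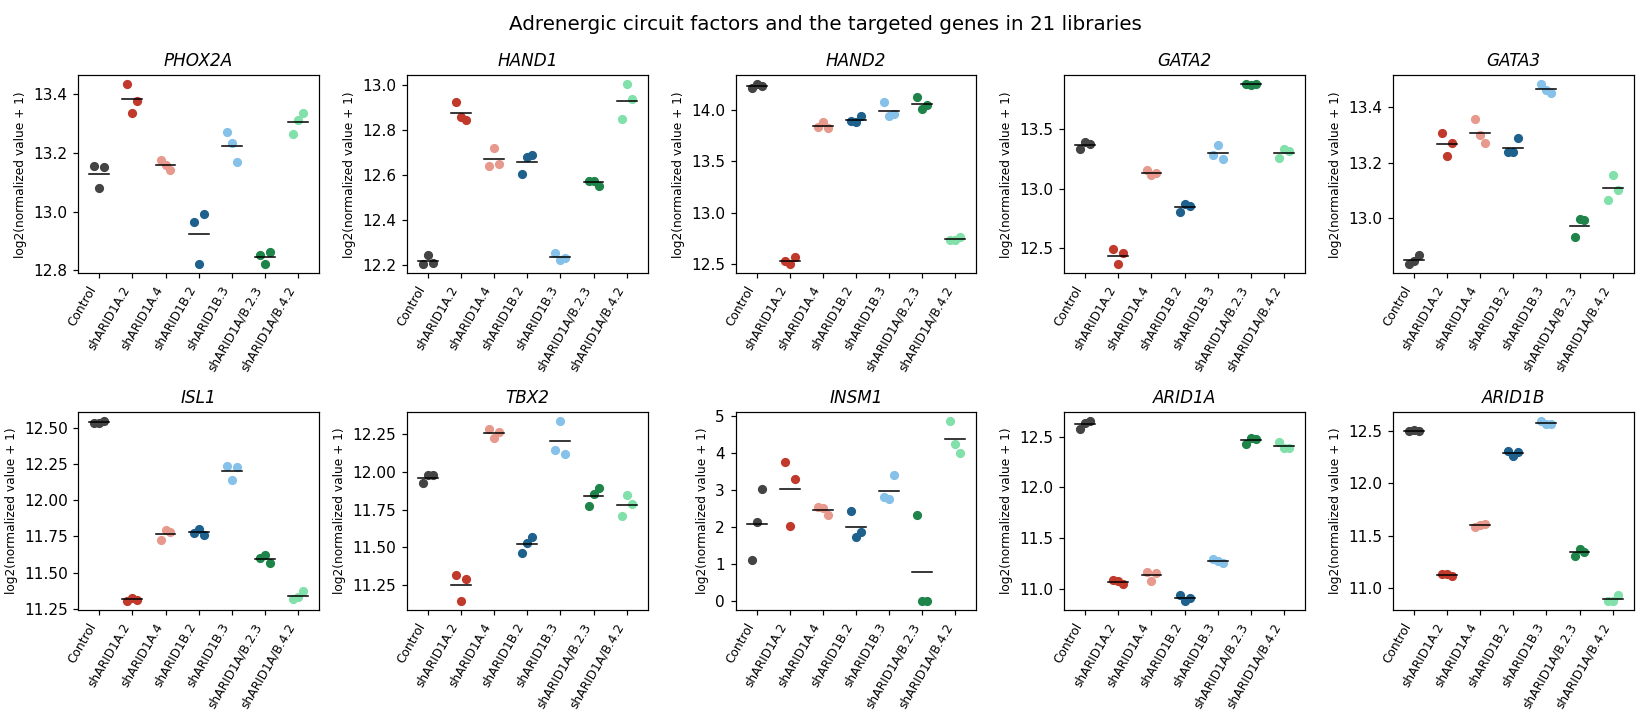
Log2(normalized value + 1) of the 8 factors and of ARID1A and ARID1B in each of the 21 libraries (points) by condition as labelled, with the mean of the 3 libraries as a line. Each panel has its own range on the y axis, which does not start at 0. HAND2 was lowest in the libraries labelled shARID1A.2 and shARID1A/B.4.2, GATA3 was lowest and ISL1 highest in Control, and GATA2 was highest in those labelled shARID1A/B.2.3.

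The homeodomain factors were PHOX2A and ISL1. PHOX2A, a determinant of the noradrenergic phenotype (chromosome 11, 72239077 to 72245664, minus strand, GRCh38), moved little and in both directions. PHOX2A had normalized values of 9117, 8661 and 9102 in Control, 11075, 10336 and 10654 in the libraries labelled shARID1A.2 and 9264, 9147 and 9036 in those labelled shARID1A.4. It was 7994, 7228 and 8139 in the libraries labelled shARID1B.2 and 9882, 9634 and 9217 in those labelled shARID1B.3. It was 7394, 7229 and 7444 in the libraries labelled shARID1A/B.2.3 and 9837, 10183 and 10352 in those labelled shARID1A/B.4.2. All libraries labelled shARID1A.2, shARID1B.3 and shARID1A/B.4.2 lay above Control, and all labelled shARID1B.2 and shARID1A/B.2.3 lay below it.

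The log2 difference of PHOX2A from Control was 0.25 in the libraries labelled shARID1A.2 (SE 0.04, adjusted p = 5.72e-07) and 0.18 in those labelled shARID1A/B.4.2 (adjusted p = 9.96e-05). It was -0.20 in the libraries labelled shARID1B.2 (adjusted p = 1.94e-05) and -0.28 in those labelled shARID1A/B.2.3 (adjusted p = 1.16e-07). With scaling to total reads the fall in the libraries labelled shARID1B.2 was no longer called (log2 difference -0.067, adjusted p = 0.106). The rise of 0.10 in the libraries labelled shARID1B.3 (adjusted p = 0.0212) was lost without Control replicate 2 (0.072, adjusted p = 0.116), without shARID1B.3 replicate 1 (0.073, adjusted p = 0.107) and without shARID1B.3 replicate 2 (0.091, adjusted p = 0.0534). In the libraries labelled shARID1A.4 the log2 difference of PHOX2A was 0.03, with a 95% interval of -0.04 to 0.10, and with scaling to the upper quartile it was called higher (0.116, adjusted p = 0.00456).

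ISL1, a LIM-homeodomain factor of sympathetic and motor neuron development (chromosome 5, 51383391 to 51394738, plus strand), was lower than Control in every condition. Normalized values of ISL1 were 5926, 5935 and 5990 in Control, 2526, 2566 and 2544 in the libraries labelled shARID1A.2 and 3388, 3556 and 3510 in those labelled shARID1A.4. It was 3493, 3569 and 3466 in the libraries labelled shARID1B.2 and 4823, 4517 and 4790 in those labelled shARID1B.3. It was 3104, 3152 and 3026 in the libraries labelled shARID1A/B.2.3 and 2557, 2571 and 2653 in those labelled shARID1A/B.4.2. All 18 silenced libraries lay below all 3 Control libraries, and those labelled shARID1B.3 lay closest to them.

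For ISL1 the log2 difference was -1.22 in the libraries labelled shARID1A.2 (SE 0.03, adjusted p = 1.57e-22) and -1.20 in those labelled shARID1A/B.4.2 (adjusted p = 3.69e-22), and the values of these conditions overlapped. It was -0.94 in the libraries labelled shARID1A/B.2.3 (adjusted p = 4.74e-20), and -0.77 and -0.76 in those labelled shARID1A.4 and shARID1B.2 (adjusted p = 1.86e-18 and 6.14e-18), whose values also overlapped. The smallest difference was -0.34 in the libraries labelled shARID1B.3 (adjusted p = 5.47e-11). ISL1 was thus at 42.8% to 79.2% of Control.

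The basic helix-loop-helix factors HAND1 and HAND2 are close relatives that bind E-boxes together with an E protein. HAND2, which is needed for noradrenergic differentiation (chromosome 4, 173524969 to 173530229, minus strand), had the largest difference among the 7 well-expressed factors in the libraries labelled shARID1A.2 and shARID1A/B.4.2, while ISL1 differed more than HAND2 in the other 4 conditions. HAND2 had normalized values of 19025, 19481 and 19187 in Control, 5911, 5778 and 6075 in the libraries labelled shARID1A.2 and 14599, 15069 and 14452 in those labelled shARID1A.4. It was 15206, 15063 and 15772 in the libraries labelled shARID1B.2 and 17254, 15725 and 15964 in those labelled shARID1B.3. It was 17809, 16500 and 16952 in the libraries labelled shARID1A/B.2.3 and 6791, 6827 and 6944 in those labelled shARID1A/B.4.2. All silenced libraries lay below Control, and the libraries labelled shARID1A.2 and shARID1A/B.4.2 stood apart from the others, at 5778 to 6944 where every other library was at 14452 or more.

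On the log2 scale HAND2 differed from Control by -1.70 in the libraries labelled shARID1A.2 (SE 0.03, adjusted p = 3.53e-24), at 30.8% of Control, and -1.49 in those labelled shARID1A/B.4.2 (adjusted p = 6.78e-23), at 35.6%. In the other conditions HAND2 was at 76.5% to 88.9% of Control. There the log2 difference was -0.39 (shARID1A.4, adjusted p = 2.75e-11), -0.33 (shARID1B.2, adjusted p = 1.10e-09), -0.24 (shARID1B.3, adjusted p = 2.50e-07) and -0.17 (shARID1A/B.2.3, adjusted p = 2.38e-05). The levels in the libraries labelled shARID1A/B.2.3 and shARID1B.3 overlapped, as did those labelled shARID1B.3 and shARID1B.2.

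HAND1, known for its part in heart and sympathetic development (chromosome 5, 154474972 to 154478264, minus strand), was higher than Control in 5 conditions. The value of HAND1 was 4708, 4842 and 4729 in Control, 7786, 7418 and 7368 in the libraries labelled shARID1A.2 and 6389, 6752 and 6428 in those labelled shARID1A.4. It was 6226, 6572 and 6598 in the libraries labelled shARID1B.2 and 4881, 4775 and 4798 in those labelled shARID1B.3. It was 6101, 6101 and 6005 in the libraries labelled shARID1A/B.2.3 and 7388, 8223 and 7859 in those labelled shARID1A/B.4.2. The libraries labelled shARID1B.3 overlapped Control, and all other silenced libraries lay above it.

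The log2 difference of HAND1 from Control was 0.72 in the libraries labelled shARID1A/B.4.2 (SE 0.03, adjusted p = 4.07e-16) and 0.66 in those labelled shARID1A.2 (adjusted p = 1.53e-15), which are the 2 conditions where HAND2 was lowest. It was 0.45 (shARID1A.4, adjusted p = 2.78e-12), 0.44 (shARID1B.2, adjusted p = 8.46e-12) and 0.35 (shARID1A/B.2.3, adjusted p = 4.78e-10) in the others that were called. Under the label shARID1B.3 the log2 difference was 0.02, with a 95% interval of -0.05 to 0.08, and with scaling to the upper quartile it was called higher (0.077, adjusted p = 0.0389).

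HAND2-AS1 (chromosome 4, 173527270 to 173659696, plus strand), the noncoding gene with 1 of its annotated starts in the HAND2 promoter stretch printed above, was looked at after its values were seen. HAND2-AS1 had normalized values of 20249, 20532 and 20170 in Control, 22836, 22696 and 22711 in the libraries labelled shARID1A.2 and 9999, 9362 and 10009 in those labelled shARID1A.4. It was 17235, 17033 and 17180 in the libraries labelled shARID1B.2 and 13742, 12973 and 13507 in those labelled shARID1B.3. It was 13526, 13965 and 13500 in the libraries labelled shARID1A/B.2.3 and 31632, 29803 and 31198 in those labelled shARID1A/B.4.2. HAND2-AS1 was thus above Control in the libraries labelled shARID1A.2 and shARID1A/B.4.2, where HAND2 was lowest, and below Control in the other 4 conditions.

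The log2 difference of HAND2-AS1 from Control was 0.16 in the libraries labelled shARID1A.2 (adjusted p = 3.81e-06), 0.60 in those labelled shARID1A/B.4.2 (adjusted p = 1.73e-16) and -1.05 in those labelled shARID1A.4 (adjusted p = 1.71e-21). In GENCODE release 29, 867 of the 3601 exon bases of HAND2 (24.1%) lie opposite exons of HAND2-AS1. The libraries are stranded, but the strand setting of the counting is not given in the sources used here, so reads of this shared stretch could not be assigned with certainty to either gene.

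The zinc-finger factors GATA2 and GATA3 bind the same core sequence, and both act in sympathetic neuron development. GATA2 (chromosome 3, 128479427 to 128493185, minus strand) was lower in some conditions and higher in 1. Normalized values of GATA2 were 10363, 10794 and 10614 in Control, 5760, 5272 and 5629 in the libraries labelled shARID1A.2 and 9163, 8860 and 8961 in those labelled shARID1A.4. It was 7146, 7512 and 7395 in the libraries labelled shARID1B.2 and 9974, 10567 and 9739 in those labelled shARID1B.3. It was 15060, 15022 and 15080 in the libraries labelled shARID1A/B.2.3 and 9809, 10348 and 10205 in those labelled shARID1A/B.4.2. The libraries labelled shARID1A/B.2.3 lay above all others, those labelled shARID1A.2 lay below all others, and those labelled shARID1B.3 overlapped Control.

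The log2 difference of GATA2 from Control was -0.93 in the libraries labelled shARID1A.2 (SE 0.03, adjusted p = 7.53e-19), -0.53 in those labelled shARID1B.2 (adjusted p = 1.63e-13) and -0.24 in those labelled shARID1A.4 (adjusted p = 2.44e-07). It was 0.51 in the libraries labelled shARID1A/B.2.3 (adjusted p = 2.25e-13), at 142.1% of Control. It was not called in the libraries labelled shARID1B.3 (-0.07, 95% interval -0.13 to -0.01, adjusted p = 0.0521). In those labelled shARID1A/B.4.2 it was not called either (-0.07, adjusted p = 0.0621), and there the sign turned with scaling to total reads (0.12, adjusted p = 0.0032) and to the upper quartile (0.097, adjusted p = 0.00918). Both values near the threshold were called in some fits that left out 1 library. Without Control replicate 1 the log2 difference of GATA2 was -0.086 (shARID1B.3, adjusted p = 0.0372) and -0.081 (shARID1A/B.4.2, adjusted p = 0.0426), and without shARID1B.3 replicate 2 it was -0.10 (shARID1B.3, adjusted p = 0.0067). The same held at -0.082 for shARID1A/B.4.2 without its replicate 2, and, through the shared spread, at -0.07 without shARID1A.2 replicate 1 or 2, shARID1B.2 replicate 1 or shARID1A/B.4.2 replicate 1 (shARID1B.3) and without shARID1A.2 replicate 2 or shARID1B.3 replicate 2 (shARID1A/B.4.2).

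GATA3, which acts upstream of the catecholamine enzymes (chromosome 10, 8045378 to 8075203, plus strand), was higher than Control in every condition. GATA3 had normalized values of 7302, 7358 and 7475 in Control, 10133, 9558 and 9872 in the libraries labelled shARID1A.2 and 10477, 10064 and 9873 in those labelled shARID1A.4. It was 9650, 9653 and 9994 in the libraries labelled shARID1B.2 and 11433, 11275 and 11173 in those labelled shARID1B.3. It was 7809, 8168 and 8154 in the libraries labelled shARID1A/B.2.3 and 8578, 9111 and 8786 in those labelled shARID1A/B.4.2. All 18 silenced libraries lay above Control, and the 6 labelled shARID1A/B.2.3 or shARID1A/B.4.2 lay below the other 12.

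For GATA3 the log2 difference from Control was 0.61 in the libraries labelled shARID1B.3 (SE 0.03, adjusted p = 5.38e-16), at 153.1% of Control. It was 0.46 (shARID1A.4, adjusted p = 8.11e-14), 0.42 (shARID1A.2, adjusted p = 5.03e-13) and 0.40 (shARID1B.2, adjusted p = 1.76e-12) in conditions whose neighbouring values overlapped. It was 0.26 in the libraries labelled shARID1A/B.4.2 (adjusted p = 5.55e-09) and 0.12 in those labelled shARID1A/B.2.3 (adjusted p = 0.000237). GATA2 and GATA3 thus differed in direction in the libraries labelled shARID1A.2, shARID1A.4 and shARID1B.2, and both were higher in those labelled shARID1A/B.2.3.

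TBX2, a T-box factor that mostly represses its targets (chromosome 17, 61399896 to 61409466, plus strand), split the shRNAs of a label. The value of TBX2 was 3899, 4042 and 4030 in Control, 2554, 2265 and 2501 in the libraries labelled shARID1A.2 and 4983, 4783 and 4909 in those labelled shARID1A.4. It was 2823, 2954 and 3041 in the libraries labelled shARID1B.2 and 4534, 5174 and 4453 in those labelled shARID1B.3. It was 3494, 3695 and 3800 in the libraries labelled shARID1A/B.2.3 and 3345, 3689 and 3530 in those labelled shARID1A/B.4.2. The libraries labelled shARID1A.4 and shARID1B.3 lay above Control, overlapping each other, and the libraries of the other 4 conditions lay below it.

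TBX2 had a log2 difference from Control of -0.71 in the libraries labelled shARID1A.2 (SE 0.05, adjusted p = 1.92e-12) and -0.44 in those labelled shARID1B.2 (adjusted p = 2.18e-08). It was 0.29 in the libraries labelled shARID1A.4 (adjusted p = 8.72e-06) and 0.24 in those labelled shARID1B.3 (adjusted p = 0.000157). Under the label shARID1A/B.4.2 it was -0.18 (adjusted p = 0.00205), and this sign turned with scaling to total reads (0.0057). With scaling to the upper quartile that call was lost (-0.019, adjusted p = 0.739). The difference of TBX2 in the libraries labelled shARID1A/B.2.3 was -0.12 (adjusted p = 0.0282). That call was lost in edgeR (-0.11, adjusted p = 0.0688) and without Control replicate 2 (-0.11, adjusted p = 0.0758), Control replicate 3 (-0.12, adjusted p = 0.0716) or shARID1A/B.2.3 replicate 1 (-0.090, adjusted p = 0.145). In limma it was also lost with scaling to total reads (adjusted p = 0.133) or to the upper quartile (adjusted p = 0.380). The same held with edgeR's TMM scaling (adjusted p = 0.0683) and without a filter on low values (adjusted p = 0.0597).

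INSM1, a zinc-finger factor of neuroendocrine cells (chromosome 20, 20368121 to 20370949, plus strand), was close to absent. INSM1 had normalized values of 1.17, 3.36 and 7.19 in Control, 12.46, 3.09 and 8.91 in the libraries labelled shARID1A.2 and 4.86, 4.76 and 3.99 in those labelled shARID1A.4. It was 4.38, 2.32 and 2.67 in the libraries labelled shARID1B.2 and 5.97, 5.7 and 9.5 in those labelled shARID1B.3. It was 4.05, 0 and 0 in the libraries labelled shARID1A/B.2.3 and 28.24, 17.77 and 14.99 in those labelled shARID1A/B.4.2. The last of these conditions lay above every other library, on 16 to 31 reads per library where Control had 1 to 7.

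For INSM1 the log2 difference from Control was 2.27 in the libraries labelled shARID1A/B.4.2 (SE 0.58), on a scale where the pseudocount of 1 weighs heavily. As INSM1 passed the filter through these libraries, this value is a description, with no test. Under the label shARID1A/B.2.3 it was -1.31 (adjusted p = 0.0484), with values that overlapped Control. That call was lost in edgeR (adjusted p = 0.149) and DESeq2 (adjusted p = 0.152). It was also lost in 17 of the 21 fits that left out 1 library, among them those without Control replicate 3 (-0.84, adjusted p = 0.245) or shARID1A/B.2.3 replicate 2 (-0.92, adjusted p = 0.204), and kept only without Control replicate 1, shARID1A.2 replicate 1 or 2, or shARID1A/B.2.3 replicate 1. The other 4 conditions overlapped Control and were not called, with log2 differences of -0.08 (shARID1B.2) to 0.94 (shARID1A.2) and the same SE, though that of shARID1A.2 was called without Control replicate 3 (1.41, adjusted p = 0.0472) or shARID1A.2 replicate 2 (1.44, adjusted p = 0.0406). INSM2, the closest relative of INSM1, was abundant, with normalized values of 10909, 11293 and 10965 in Control.

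**Figure D2:**
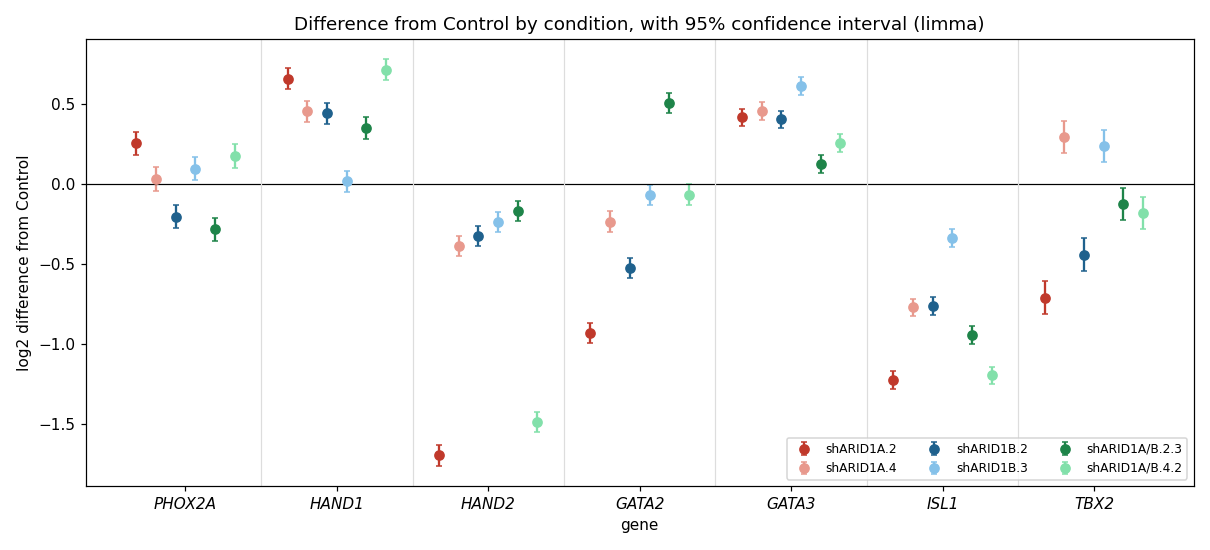
Log2 difference from Control (y axis, limma on log2(normalized value + 1), n = 3 libraries against 3) of the 7 well-expressed factors (x axis) in the 6 conditions as labelled, with the 95% confidence interval as a bar. All 6 points lie below 0 for HAND2 and ISL1 and above 0 for GATA3, while PHOX2A, GATA2 and TBX2 have points on both sides; with scaling to total reads the shARID1A/B.4.2 points of GATA2 and TBX2 lie above 0.

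Counted by condition, 7 of the 8 factors were called in the libraries labelled shARID1A.2, where PHOX2A, HAND1 and GATA3 were higher and HAND2, GATA2, ISL1 and TBX2 lower. Of all genes tested there, 37.9% were called higher and 38.2% lower, and 24.8% were called with a difference of at least 1 log2 unit, as were 2 of the 8 factors (HAND2 and ISL1). Under the label shARID1A.4, HAND1, GATA3 and TBX2 were higher and HAND2, GATA2 and ISL1 lower, against 37.0% and 36.6% of all genes. None of the factors reached 1 log2 unit there, against 21.4% of all genes.

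In the libraries labelled shARID1B.2, HAND1 and GATA3 were higher and PHOX2A, HAND2, GATA2, ISL1 and TBX2 lower, against 31.6% and 34.0% of all genes, and none reached 1 log2 unit, against 12.0%. In those labelled shARID1B.3, PHOX2A, GATA3 and TBX2 were higher and HAND2 and ISL1 lower, against 31.9% and 32.0% of all genes, and none reached 1 log2 unit, against 11.8%. Under the label shARID1A/B.2.3, HAND1, GATA2 and GATA3 were higher and PHOX2A, HAND2, ISL1, TBX2 and INSM1 lower, against 35.2% and 34.0% of all genes. There 1 factor, the near-absent INSM1, reached 1 log2 unit, against 16.1%. In those labelled shARID1A/B.4.2, PHOX2A, HAND1, GATA3 and INSM1 were higher and HAND2, ISL1 and TBX2 lower, against 35.1% and 36.1% of all genes, and HAND2, ISL1 and INSM1 reached 1 log2 unit, against 18.4%. As most of all genes were called in each condition, these counts are no result about the factors, and that of INSM1 under the label shARID1A/B.4.2 follows from the filter. All 6 comparisons share the same 3 Control libraries, so the directions that recur across them are not independent of each other. By the numbers in their labels, the conditions labelled shARID1A/B may also share shRNAs with other silenced conditions, which would be a further dependence. The median log2 difference over all genes tested was 0.01 to 0.02 in these comparisons.

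The shRNAs of a label were then compared directly. Between the libraries labelled shARID1A.2 and shARID1A.4, both low in ARID1A and in ARID1B, HAND2 differed by -1.31 on the log2 scale (adjusted p = 5.40e-22), TBX2 by -1.0 (adjusted p = 1.73e-15), GATA2 by -0.70 (adjusted p = 2.57e-16) and ISL1 by -0.45 (adjusted p = 8.02e-14), all lower under the label shARID1A.2. PHOX2A (0.22, adjusted p = 3.84e-06) and HAND1 (0.21, adjusted p = 2.84e-06) were higher under the label shARID1A.2. GATA3 differed by -0.04, with a 95% interval of -0.10 to 0.01, and its sign turned with scaling to total reads (0.11). Of all genes tested, 38.4% were called higher and 37.3% lower between these conditions, and 23.9% differed by at least 1 log2 unit. ARID1B was lower by 0.47 on the log2 scale under the label shARID1A.2 than under shARID1A.4 (adjusted p = 2.03e-15), and its part in these differences was not tested.

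Between the libraries labelled shARID1B.2 and shARID1B.3, both low in ARID1A, 6 factors were lower under the label shARID1B.2. The largest of these log2 differences were -0.68 for TBX2 (adjusted p = 6.77e-12), -0.46 for GATA2 (adjusted p = 2.06e-12) and -0.42 for ISL1 (adjusted p = 5.05e-13). PHOX2A (-0.30, adjusted p = 5.32e-08) and GATA3 (-0.21, adjusted p = 2.02e-07) followed. HAND2 differed by -0.09 (adjusted p = 0.0149), a sign that turned with scaling to total reads (0.021), and the call was lost without shARID1B.2 replicate 2 (-0.074, adjusted p = 0.0659) or shARID1B.3 replicate 1 (-0.046, adjusted p = 0.168). HAND1 was higher under the label shARID1B.2 by 0.42 (adjusted p = 1.53e-11). Of all genes tested, 33.0% were called higher and 33.0% lower, and 13.7% differed by at least 1 log2 unit. The targeted genes differed too, ARID1A by -0.37 (adjusted p = 3.31e-11) and ARID1B by -0.28 (adjusted p = 6.49e-11), both lower under the label shARID1B.2. Their part in these differences was not tested.

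Between the libraries labelled shARID1A/B.2.3 and shARID1A/B.4.2, both low in ARID1B, HAND2 differed by 1.32 on the log2 scale (adjusted p = 5.90e-22), GATA2 by 0.57 (adjusted p = 1.51e-14) and ISL1 by 0.25 (adjusted p = 5.44e-09), all higher under the label shARID1A/B.2.3. PHOX2A (-0.46, adjusted p = 1.62e-11), HAND1 (-0.36, adjusted p = 1.86e-10) and GATA3 (-0.13, adjusted p = 9.27e-05) were lower under the label shARID1A/B.2.3. TBX2 differed by 0.06, with a 95% interval of -0.04 to 0.16. INSM1 differed by -3.59, with 2 of the 3 libraries labelled shARID1A/B.2.3 at 0, and this too is a description, since the libraries labelled shARID1A/B.4.2 let it pass the filter. Of all genes tested, 37.1% were called higher and 37.8% lower, and 22.3% differed by at least 1 log2 unit. ARID1B was higher by 0.45 under the label shARID1A/B.2.3 than under the label shARID1A/B.4.2 (adjusted p = 5.79e-15), and its part in these differences was not tested.

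Across the 21 libraries, HAND1 and ISL1 ran in opposite directions (Pearson's r = -0.9334 on log2 values), as did HAND1 and HAND2 (r = -0.8088), while HAND2 and ISL1 ran together (r = 0.78). These values describe 21 libraries that fall into 7 conditions, and they carry no test. The genes outside the 8 factors with the most similar pattern over the same 21 libraries were SQLE (r = 0.9906) and DCBLD2 (0.9856) for ISL1, and PACSIN2 (0.9869) and KIAA1549 (0.9864) for HAND2. For HAND1 they were ST6GALNAC6 (0.9798) and DYNLL2 (0.9665), for GATA2 TNS1 (0.9819) and LINC02073 (0.9566), and for GATA3 TNRC18 (0.9583) and AL161457.2 (0.9484). For PHOX2A they were UNC80 (0.9557) and NRSN2 (0.9327), for TBX2 CCT7 (0.9609) and CHAC2 (0.96), and for INSM1 C8orf82 (0.8336) and RAB5A (0.8335). They were picked as the highest of the genes tested, and nothing about the genes' function follows from them.

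The output of the circuit was followed in 13 noradrenergic genes, of which 12 were tested and PNMT, which turns noradrenaline into adrenaline, was near absent (mean normalized value 2.53 in Control). They did not move as a block. Under the label shARID1A/B.2.3, 9 of the 12 were higher and 2 lower than Control, where 35.2% and 34.0% of all genes tested were. In those labelled shARID1B.3, 1 was higher and 10 lower, against 31.9% and 32.0% of all genes. The counts were 4 higher and 6 lower (shARID1A.2), 6 and 4 (shARID1A.4), 2 and 7 (shARID1B.2) and 5 and 4 (shARID1A/B.4.2). In these conditions 31.6% to 37.9% of all genes tested were called higher and 34.0% to 38.2% lower. The median log2 difference of the list was 0.43 (shARID1A/B.2.3), 0.33 (shARID1A.4), -0.01 (shARID1A/B.4.2), -0.40 (shARID1A.2), -0.55 (shARID1B.3) and -0.59 (shARID1B.2), where that of all genes was 0.01 to 0.02.

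DBH, the enzyme that makes noradrenaline from dopamine, had normalized values of 475.69, 590.97 and 519.69 in Control. It was 107.19, 122.57 and 111.36 in the libraries labelled shARID1A.2 and 872.07, 913.28 and 823.32 in those labelled shARID1A.4. It was 139.18, 130.82 and 161.84 in those labelled shARID1B.2 and 156.29, 160.57 and 165.79 in those labelled shARID1B.3. DBH was therefore below Control in these conditions except shARID1A.4, where it was above. It was 1190, 1078 and 1126 in the libraries labelled shARID1A/B.2.3 and 158.5, 138.27 and 180.76 in those labelled shARID1A/B.4.2. The log2 difference was thus 0.72 (shARID1A.4, adjusted p = 1.82e-07) and 1.10 (shARID1A/B.2.3, adjusted p = 1.25e-10) in the 2 conditions where DBH was higher, and between -1.71 and -2.20 in the other 4.

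TH, the rate-limiting enzyme of catecholamine synthesis, was higher in the same 2 conditions. Its normalized value was 714.12, 659.24 and 660.4 in Control, 1775, 1599 and 1615 in the libraries labelled shARID1A.4 and 2047, 2025 and 2141 in those labelled shARID1A/B.2.3 (log2 difference 1.29 and 1.61, adjusted p = 1.88e-11 and 3.22e-13). Under the label shARID1B.3 it was lower (-0.41, adjusted p = 0.00103), and in the other 3 conditions it was not called. The value of S100B, a Schwann cell marker, was also highest in these 2 conditions (196.17 to 211.57 and 131.35 to 140.67, against 67.16 to 82.16 in Control). ERBB3, another gene of the Schwann cell list, was called lower in both, and SOX10 of that list was not detected in any library. The part of these genes in the result was not tested.

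MAOA, which breaks noradrenaline down, had the largest rise of the list. Its normalized value was 143.29, 135.43 and 136.6 in Control and 4113, 4325 and 4264 in the libraries labelled shARID1A.2, a log2 difference of 4.92 (adjusted p = 7.04e-28). It was 1420, 1281 and 1344 in the libraries labelled shARID1A/B.4.2 (3.27, adjusted p = 1.78e-24). So MAOA was highest in the 2 conditions with the lowest HAND2. It was also higher in the libraries labelled shARID1B.2 (2.60), shARID1A/B.2.3 (1.84) and shARID1A.4 (1.77), and lower in those labelled shARID1B.3 (-0.67, adjusted p = 1.67e-10). SCG2, a secretory granule protein, was lower in all 6 conditions, by -0.11 (shARID1B.3) to -1.03 (shARID1A/B.2.3) on the log2 scale.

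**Figure D3:**
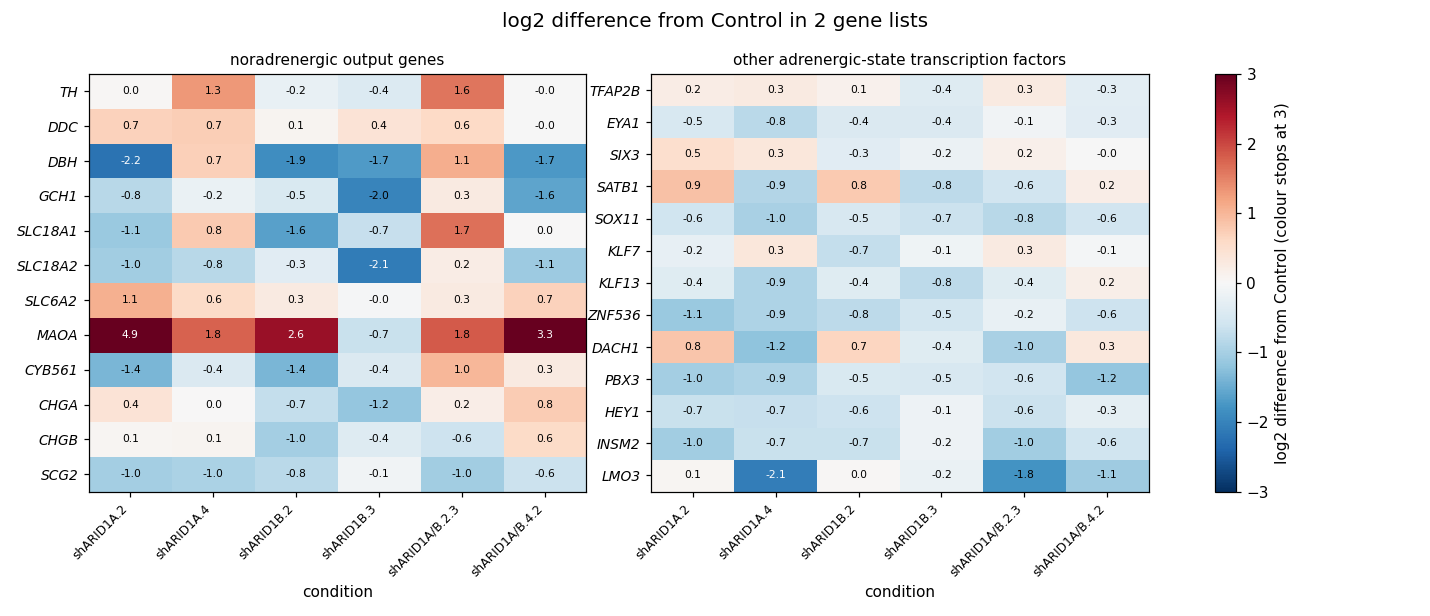
Log2 difference from Control (colour, which stops at 3, and printed value) of 12 tested noradrenergic output genes (left) and 13 other adrenergic-state transcription factors (right) in the 6 conditions as labelled. MAOA reached 4.92 in the libraries labelled shARID1A.2, TH and DBH were higher in those labelled shARID1A.4 and shARID1A/B.2.3, and EYA1, SOX11, ZNF536, PBX3, HEY1 and INSM2 were lower in all 6 conditions.

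Among 13 other transcription factors of the adrenergic state, more were called lower than higher in every condition, where all genes tested were called lower (32.0% to 38.2%) about as often as higher (31.6% to 37.9%). The counts were 8 lower and 4 higher (shARID1A.2), 10 and 3 (shARID1A.4), 9 and 3 (shARID1B.2), 12 and 0 (shARID1B.3), 10 and 3 (shARID1A/B.2.3) and 8 and 2 (shARID1A/B.4.2). The median log2 difference of the list was -0.37 (shARID1A.2), -0.88 (shARID1A.4), -0.42 (shARID1B.2) and -0.39 (shARID1B.3), and -0.57 (shARID1A/B.2.3) and -0.32 (shARID1A/B.4.2), where that of all genes was 0.01 to 0.02. EYA1, SOX11, ZNF536, PBX3, HEY1 and INSM2 were lower in all 6 conditions. INSM2, the relative of INSM1, was at 48.5% of Control in the libraries labelled shARID1A.2 and shARID1A/B.2.3 (log2 difference -1.04 in both) and at 90.0% in those labelled shARID1B.3 (-0.16, adjusted p = 0.00166). SATB1, a chromatin organiser, was higher in the libraries labelled shARID1A.2 (0.88) and shARID1B.2 (0.78) and lower in those labelled shARID1A.4 (-0.88) and shARID1B.3 (-0.78), so it too split the shRNAs of a label.

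The protein partners of the factors were 11 genes, all tested. TCF4 and TCF12, E proteins with which HAND1 and HAND2 pair on DNA, were lower in all 6 conditions. TCF3, another E protein, was not called under the labels shARID1B.3 and shARID1A/B.2.3 and was lower in the other conditions. The TCF4 value was 12301, 11899 and 12206 in Control, 4148, 3954 and 3978 in the libraries labelled shARID1A.4 (log2 difference -1.59, adjusted p = 2.06e-22) and 4106, 3661 and 3983 in those labelled shARID1B.3 (-1.63, adjusted p = 4.20e-22). In the other conditions it was lower by less, from -0.27 (shARID1A/B.2.3) to -0.70 (shARID1A.2 and shARID1A/B.4.2). TCF12 was lowest in the libraries labelled shARID1A/B.4.2 (-1.07, adjusted p = 5.74e-22) and shARID1A.2 (-0.76, adjusted p = 3.83e-19).

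ID1 and ID3, which bind E proteins and keep them from DNA, were higher in all 6 conditions. Their relatives ID2 and ID4 were not. ID2 was lower under the label shARID1A/B.4.2, at 82.5% of Control, and higher in the other conditions. ID4 was lower under the label shARID1A.2, at 75.5% of Control, higher under the label shARID1B.3 and not called elsewhere. The ID3 value was 1451, 1393 and 1446 in Control and 2192 to 3936 in the silenced libraries, with a log2 difference of 0.78 (shARID1A/B.4.2, adjusted p = 1.17e-09) to 1.24 (shARID1B.3, adjusted p = 2.71e-13). ID1 ranged from 0.31 (shARID1A/B.4.2, adjusted p = 0.00716) to 1.18 (shARID1B.2, adjusted p = 1.04e-10). Over the whole list of partners, 6 were higher and 5 lower (shARID1A.2), 4 and 6 (shARID1A.4), 6 and 4 (shARID1B.2), 5 and 5 (shARID1B.3), 4 and 4 (shARID1A/B.2.3) and 5 and 5 (shARID1A/B.4.2). Of all genes tested, 31.6% to 37.9% were called higher and 32.0% to 38.2% lower. The median log2 difference of the list was -0.12 (shARID1A.4) to 0.20 (shARID1A.2). As most genes tested were called in each condition, these counts are no result about the partners.

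Of 8 close relatives of the factors, 4 were tested (GATA4, GATA6, TBX3 and TBX4), and GATA1 and TBX5 were listed at 0 in Control. GATA4 was lower in the libraries labelled shARID1A.2 (-0.69, adjusted p = 2.20e-11), shARID1A/B.4.2 (-0.60, adjusted p = 3.54e-10) and shARID1B.2 (-0.25, adjusted p = 0.000288). It was higher in those labelled shARID1A.4 (0.28), shARID1B.3 (0.29) and shARID1A/B.2.3 (0.33). GATA6 was higher in 5 conditions, by 0.38 (shARID1A.4) to 1.46 (shARID1B.2), from 59.32 to 73.95 in Control. TBX3, the closest relative of TBX2, had values of 5026, 5085 and 5108 in Control and was called only in the libraries labelled shARID1A.4, where it was lower (-0.51, adjusted p = 1.40e-09) and TBX2 was higher. TBX4 was near the floor, on 2 to 6 reads per library in Control and 16 to 20 in those labelled shARID1A/B.4.2. Its log2 difference there was 1.49. As TBX4 passed the filter on low values through the libraries where it was highest, this value is a description, with no test. In no other condition was TBX4 called.

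The transcription factors of the mesenchymal state, the other state of neuroblastoma cells, were measured beside the adrenergic ones. Of 19 listed genes 14 were tested, and PRRX1, TWIST2 and MEOX2 were at 0 in Control. The summed normalized value of the list was 14594 to 14831 in Control. NOTCH2, TWIST1 and SMAD3 weighed most in this sum, with means of 4502, 3809 and 2168 in Control. The summed value in the silenced conditions was lower. The sum was 6594 to 6664 in the libraries labelled shARID1A.2 and 6784 to 6936 in those labelled shARID1A/B.4.2, conditions where HAND2 was lowest. It was 10519 to 10591 (shARID1A.4), 11672 to 11895 (shARID1B.2), 12747 to 13015 (shARID1B.3) and 11683 to 11912 (shARID1A/B.2.3). No condition exceeded Control in this sum, although FOSL1, FOSL2 and MAFF were called higher and 7 genes lower under the label shARID1A/B.2.3. The part of the listed genes in the differences of the adrenergic factors was not tested.

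Among the mesenchymal-state factors, 10 were lower and 1 higher (shARID1A.2), 10 and 2 (shARID1A.4), 8 and 0 (shARID1B.2), 11 and 0 (shARID1B.3), 7 and 3 (shARID1A/B.2.3) and 9 and 0 (shARID1A/B.4.2). Over all genes tested, 32.0% to 38.2% were called lower and 31.6% to 37.9% higher. The median log2 difference of the list was between -0.20 (shARID1B.2) and -1.07 (shARID1A.2), where that of all genes was 0.01 to 0.02. TWIST1, a basic helix-loop-helix factor that can also pair with HAND proteins, was lower in all 6, by -0.14 (shARID1B.2, adjusted p = 0.0142) to -1.77 (shARID1A/B.4.2, adjusted p = 1.79e-20). SNAI2, a regulator of neural crest migration, was at 27.7% (shARID1A.2) and 23.7% (shARID1A/B.4.2) of Control.

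Schwann cell and precursor genes stood for another cell type of the sympathetic lineage. Their defining factor SOX10 was at 0 in all 21 libraries. ERBB3, a neuregulin receptor, was lower in 4 conditions, by -1.40 (shARID1A/B.2.3, adjusted p = 0.0229) to -2.13 (shARID1A.4, adjusted p = 0.000932) on the log2 scale, and was not called under the labels shARID1A.2 and shARID1A/B.4.2. S100B was higher under the labels shARID1A.4 (1.46, adjusted p = 5.98e-10) and shARID1A/B.2.3 (0.90, adjusted p = 2.28e-06) and lower under the label shARID1A.2 (-0.37, adjusted p = 0.0173).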

How the data were processed

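RNA-Seq of 21 SK-N-BE(2) libraries was analysed, in 7 conditions taken from the labels of the libraries, with 3 biological replicates each. Libraries were made with TruSeq Stranded mRNA and sequenced on an Illumina NovaSeq. The submitters' processing notes name STAR 2.5.3a, RSEM 1.3.0, DESeq2 1.26.0 and GRCh38. The annotation, and whether counting used strand, are not given in the sources used here.

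The deposited signal of a gene is its number of reads in a library over that library's size factor (0.8409 to 1.295), as scaled by the authors. Dividing by the step between low values gave back whole reads for 100% of the values (tolerance 0.05 read), although whole numbers can also be rounded estimates. The 27954334 to 41077638 reads per library set the precision, and low genes such as INSM1 are limited by it. Further tables hold the authors' comparisons (log2 fold changes and p-values) and were not used.

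As the deposited unit is scaled, the main test was limma 3.58.1 (R 4.3.3) with a trend on log2(value + 1), fitted over all 21 libraries as 7 conditions. The pseudocount of 1 understates differences of low genes. After edgeR's filter on the recovered reads 18584 genes remained, over which the Benjamini-Hochberg adjustment was made. P-values measure the spread between these libraries. Alternatives were edgeR 4.0.16 and DESeq2 1.42.0 on the recovered reads, other scalings, pseudocounts and filters, the 4 label groups, only the 6 libraries compared, the replicate number as a block, and each library left out in turn. The script was tested on simulated reads.

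The genes named are the 8 factors, ARID1A, ARID1B, every gene of 6 lists (examples are given for long lists, and 2 genes of the Schwann cell list are not reported here), and for each factor the 2 other genes with the highest Pearson correlation over the libraries. The 4 antisense genes were added after their values were seen. The factors and lists were chosen with earlier results of these data known. Gene positions are from GENCODE release 29, matched by identifier without its version. Promoter sequences are from RefSeq (GRCh38.p14), of which 250 bases before each start were searched, and bases inside an annotated exon are not shown. Samples sharing a replicate number did not deviate together (correlations of -0.088 to 0.053 over 63 such pairs), so the numbers were not taken as pairs.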

Additional observations from a re-analysis of the deposited data

Results flagged for a closer look

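In 5 results the shRNAs of 1 label moved a factor in opposite directions from Control, with the difference between the shRNAs itself called by limma, although most genes tested were called in such comparisons. For PHOX2A the log2 difference between the libraries labelled shARID1B.2 and shARID1B.3 was -0.30, and between those labelled shARID1A/B.2.3 and shARID1A/B.4.2 it was -0.461. For TBX2 the difference was -1.0 between the libraries labelled shARID1A.2 and shARID1A.4 and -0.68 between those labelled shARID1B.2 and shARID1B.3. For INSM1 it was -3.59 between the libraries labelled shARID1A/B.2.3 and shARID1A/B.4.2, on 0 to 31 reads per library, and this difference is a description only, as INSM1 passed the filter on low values through the libraries labelled shARID1A/B.4.2 and its fall under the label shARID1A/B.2.3 was lost in edgeR and DESeq2. Each of these pairs of conditions is low in the same targeted genes, though not to the same degree, and a cause was not tested. The search for a library far from the others ran on 24 groups of 6 (8 factors in 3 labels) and found none, but each group joins 2 conditions whose difference widens its range, so it says little about single libraries.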

How the results depend on the processing

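Scaling to total reads moved the median gene by 0.187 (shARID1A.2), 0.145 (shARID1B.2) and 0.2 (shARID1A/B.4.2) from Control, and by 0.178, 0.114 and -0.17 between the shRNAs of a label, and scaling to the upper quartile did so by 0.197, 0.127 and 0.176, and by 0.125 and -0.106 for the shARID1A and shARID1A/B shRNAs. Signs that turned with total reads were INSM1, shARID1B.2 against Control (0.018), GATA2, shARID1A/B.4.2 against Control (0.12), TBX2, shARID1A/B.4.2 against Control (0.0057), GATA3, shARID1A.2 against shARID1A.4 (0.11), ARID1A, shARID1A.2 against shARID1A.4 (0.086), HAND2, shARID1B.2 against shARID1B.3 (0.021), TBX2, shARID1A/B.2.3 against shARID1A/B.4.2 (-0.095) and ARID1A, shARID1A/B.2.3 against shARID1A/B.4.2 (-0.096). With the upper quartile the same held for INSM1 (0.0039), GATA2 (0.097), GATA3 (0.055), ARID1A (0.033), TBX2 (-0.031) and ARID1A (-0.031) in the comparisons just named for them, but not for TBX2 against Control or HAND2.

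Pooling the shRNAs of a label into 4 label groups lowered the number of factors called from 7 to 2 (shARID1B.2), 5 to 2 (shARID1B.3), 8 to 3 (shARID1A/B.2.3) and 7 to 3 (shARID1A/B.4.2), as such a fit puts the difference between shRNAs into the spread. The counts of 8 and 7 under the labels shARID1A/B include INSM1. Among the calls lost was that of HAND2, at -0.28 for shARID1B (limma, adjusted p = 0.677) and -0.83 for shARID1A/B (adjusted p = 0.112). Each label's pooled value then had the other sign for TBX2, shARID1A.4 against Control (-0.21), INSM1, shARID1B.2 against Control (0.40), PHOX2A, shARID1B.3 against Control (-0.054), TBX2, shARID1B.3 against Control (-0.10), ARID1B, shARID1B.3 against Control (-0.070), INSM1, shARID1A/B.2.3 against Control (0.48), PHOX2A, shARID1A/B.4.2 against Control (-0.054) and GATA2, shARID1A/B.4.2 against Control (0.22).

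Leaving out 1 library turned the sign of INSM1, shARID1A.4 against Control (-0.11 without Control replicate 1, in a range of -0.11 to 0.84) and INSM1, shARID1B.2 against Control (0.39 without Control replicate 3 and 0.060 without shARID1B.2 replicate 2, in a range of -0.57 to 0.39). Of the values for single factors, 1472 kept sign and call when 1 library was left out, 25 lost the call, 12 gained it and 3 turned. Over the other settings 780 kept both, 30 lost the call, 4 gained it and 17 turned. With the replicate number as a replicate block, members called, shARID1A.2 against Control were 7, as in the fit without it, and the count was the same in every other comparison; 6 of 21 libraries correlated best with their own number. Without a filter on low values 35892 genes were tested, and with at least 10 reads in every library 14637, where INSM1 has no value. DESeq2 called 13503 genes and edgeR 14188 in the libraries labelled shARID1A.2, where limma called 14142. Depth limits INSM1, on 0 to 31 reads per library, more than the other 7 factors.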

Other observations

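The antisense genes of 3 other factors were looked at after their values were seen. None of their exon bases lie opposite exons of the factor. GATA2-AS1 had normalized values of 797.51, 885.33 and 865.81 in Control and was lower in all 6 conditions. It was at 42.5% of Control in the libraries labelled shARID1A.4 (log2 difference -1.23, limma, adjusted p = 1.18e-15) and at 54.9% in those labelled shARID1A/B.2.3 (-0.86, adjusted p = 1.86e-12), where GATA2 itself was at 142.1%. In the libraries labelled shARID1A.2, where GATA2 was lowest, GATA2-AS1 was at 73.6% of Control (-0.44, adjusted p = 2.64e-07).

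GATA3-AS1 had values of 221.99, 219.37 and 202.33 in Control and was called in 1 condition, the libraries labelled shARID1B.3 (362.36, 376.26 and 325.53, log2 difference 0.72, adjusted p = 3.26e-06), where GATA3 was highest too. TBX2-AS1 (103.36, 82.83 and 109.89 in Control) was higher in the libraries labelled shARID1B.3 (0.33, adjusted p = 0.0253) and lower in those labelled shARID1A/B.2.3 (-0.31, adjusted p = 0.03).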
